A study of Mus musculus with 6 samples.

Results

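The superoxide dismutases, glutathione peroxidases and peroxiredoxins form a relay that removes reactive oxygen. Dismutases turn superoxide into hydrogen peroxide, Sod1 mainly in the cytosol, Sod2 in the mitochondrial matrix and Sod3 outside the cell, and the other families then reduce the peroxide, glutathione peroxidases with glutathione and peroxiredoxins with thioredoxin or, for Prdx6, glutathione. In muscle the respiratory chain is a steady source of superoxide, which is why the matrix enzymes Sod2 and Prdx3 are often read beside mitochondrial content. Pyruvate, an alpha-keto acid, also reacts with hydrogen peroxide without an enzyme. Hydrogen peroxide and enzyme activity were not measured in the data analysed here.

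Transcripts of these enzymes were read in C2C12 cells, a mouse myoblast line whose cells fuse into myotubes on differentiation. The 3 untreated samples had spent 72 h in basal medium, which was DMEM with 10% fetal bovine serum, 4 mM L-glutamine and 1% antibiotics. The 3 pyruvate samples had spent 72 h in the same supplements with 50 mM sodium pyruvate, in a DMEM described as free of it. The labels leave unsaid whether the basal DMEM held pyruvate, no control for the added sodium was analysed, and 1 cell line was used. No label names separate cultures, so each p-value below weighs a difference against array-to-array spread that may be technical.

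The list held 10 genes: Sod1, Sod2, Sod3, Gpx1, Gpx3, Gpx4, Prdx1, Prdx3, Prdx5 and Prdx6. They were taken by name, but with earlier results of these data known. A probe set, a group of array probes against 1 transcript, was used if the platform annotation gave it 1 gene symbol. By this rule 7 of the 10 genes were measured, by 16 of the 34945 probe sets with 1 symbol. Prdx1 shared each of its 5 probe sets with Gm21399 in the annotation, and no single-symbol probe set named Prdx5 or Prdx6, so these 3 peroxiredoxins are not analysed here. The measured genes were Sod1 with 5 probe sets, Sod2 with 4, Sod3 and Gpx4 with 2 each, and Gpx1, Gpx3 and Prdx3 with 1 each. All 7 matched the RefSeq gene table by gene identifier.

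The values are MAS5 signals, intensities on a linear scale, from 1 array per sample. Changes are differences of mean log2(signal + 16), pyruvate minus untreated, which understate the change of dim probe sets, and calls are limma tests with Benjamini-Hochberg adjusted p under 0.05. Of the 16 probe sets, 14 passed the signal filter, a mean log2 value of at least 5.53 or a signal of about 30.3. Correlations of signal between arrays were 0.995 to 0.998 within groups and 0.969 to 0.982 between groups, across probe sets, which are not independent replicates. Of 7 myoblast markers 6 passed the filter and Pax7 did not, 2 were higher and 3 lower with pyruvate, and their summed signal was 8080 to 8368 on untreated and 7267 to 7504 on pyruvate arrays. Of 9 myotube markers, 8 were lower with pyruvate, and their summed signal was 6074 to 6581 on untreated and 761 to 938 on pyruvate arrays. Among the fibroblast markers Thy1, Dpt and Lum were below the filter and the summed signal of all 5 was 333 to 339 and 310 to 340. Pdgfra, a dim one of them, read 46.2, 28.4 and 30.4 untreated and 45.7, 66.0 and 50.2 with pyruvate, which overlap (0.46, adjusted p = 0.055). It was called higher with quantile, cyclic loess or median centring (adjusted p = 0.036, 0.035 and 0.032). Dcn, the brightest of the 5, leaned the other way, at 269.0, 266.6 and 276.0 untreated and 248.2, 239.0 and 221.0 with pyruvate. Its groups did not overlap, but it was not called (-0.19, adjusted p = 0.054), nor with those normalizations. Among the macrophage markers Ptprc, Adgre1 and Itgam were below it, and the 5 summed to 123 to 148 and 123 to 174. Of 4 endothelial markers only Kdr passed the filter, and its mean was 40.4 untreated and 25.8 with pyruvate, a call lost with quantile or cyclic loess normalization. The part of this loss of myotube transcripts in the changes below was not tested. In such bulk samples fewer cells of a type and less RNA per cell cannot be told apart.

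With pyruvate, the transcript of the secreted dismutase Sod3 rose most, to 3.57-fold of the untreated signal, and the glutathione peroxidases Gpx1 and Gpx4 rose by less. The cytosolic dismutase Sod1 was slightly higher and the matrix dismutase Sod2 slightly lower on the brightest probe set of each, while other probe sets of both genes did not pass. The matrix peroxiredoxin Prdx3 did not pass. In all, 6 of the 14 member probe sets that passed the filter were called higher and 1 lower, where 16.3% and 15.9% of all 22519 probe sets tested were called, 32.2% in either direction. The 6 include the dimmer Sod3 probe set (1417634_at), which passed the filter only through its pyruvate arrays, so its call does not add to this comparison. By gene, on the brightest probe set, 4 of the 6 members that passed were higher and 1 lower, against 20.7% and 14.5%, or 35.1% either way, of all 10685 genes tested. Their median log2 change was 0.26, against 0.03 for all genes. Because the list was chosen with earlier results of these data known, these comparisons only describe it.

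**Figure D1:**
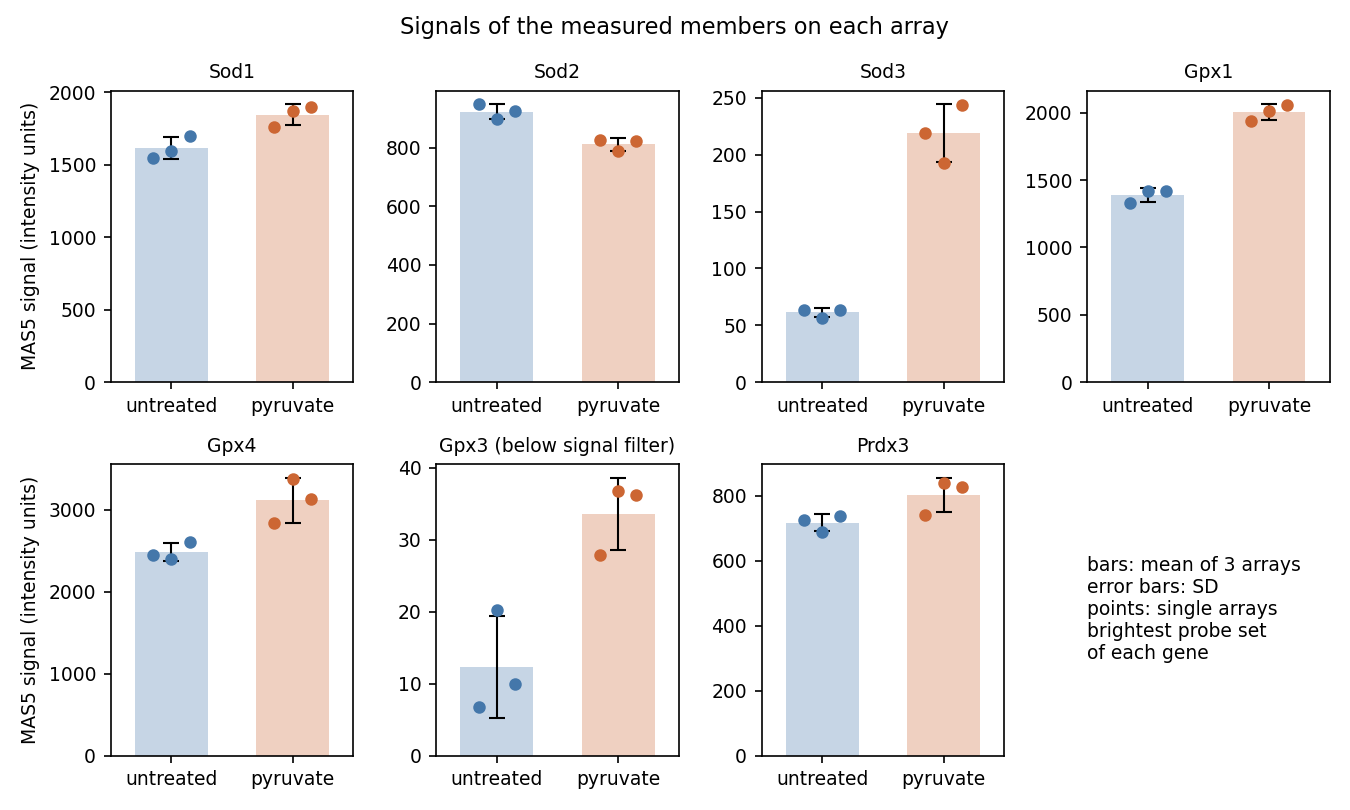
MAS5 signal (intensity units, linear axes from 0) of the brightest probe set of each of the 7 measured genes on the 3 untreated (blue) and 3 pyruvate (orange) arrays; points are arrays, bars group means and error bars SD. Sod3, Gpx1 and Gpx4 lie higher on every pyruvate array than on any untreated array. So do Sod1 and Prdx3, by narrow gaps, and Gpx3, which is dim throughout, while Sod2 lies lower.

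Sod3, the extracellular copper and zinc dismutase that binds heparan sulfate at the cell surface, was dim in untreated cells. Its brighter probe set (1417633_at) read 63.5, 56.7 and 63.8 on the untreated arrays and 219.4, 193.0 and 243.9 on the pyruvate arrays. Every pyruvate array was over every untreated array, and the lowest pyruvate value lay far above the highest untreated value. The means were 61.3 ± 4.02 and 219 ± 25.5 (SD, n = 3 each), a log2 change of 1.60 ± 0.10 (SE; limma adjusted p = 1.3e-06). The other Sod3 probe set (1417634_at) read 38.4, 31.6 and 8.2 untreated and 113.2, 102.1 and 122.4 with pyruvate. It also separated the groups, although its untreated mean of 26.1 was below the filter, so it passed through the pyruvate arrays. Its log2 change was 1.69 ± 0.25 (SE; limma adjusted p = 0.00035). Among all probe sets tested the change of the brighter one ranked 20 from the highest. Both stayed called under each alternative run, with log2 changes of 1.17 to 1.81 for the brighter and 0.99 to 2.31 for the dimmer, the ends coming from pseudocounts of 64 and 1.

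Sod1, the cytosolic copper and zinc dismutase, had a pair of bright probe sets and 3 dim ones. The brightest (1451124_at) read 1550.6, 1593.3 and 1699.1 untreated and 1764.5, 1871.2 and 1900.9 with pyruvate. The groups did not overlap, but the gap between them was smaller than the spread within either. Its log2 change was 0.19 ± 0.05 (SE; limma adjusted p = 0.016). The other bright one (1459976_s_at) read 1485.8, 1492.5 and 1628.9 and then 1552.0, 1783.0 and 1670.3, which overlap (0.12, adjusted p = 0.17). Probe sets 1435304_at and 1440222_at had log2 changes of -0.05 and -0.02 and did not pass (adjusted p = 0.74 and 0.94). Probe set 1447761_x_at, at signals of 0.8 to 6.4, was below the filter. The call of the brightest was lost with cyclic loess normalization (0.10, adjusted p = 0.14). It was also lost in limma without the variance trend (adjusted p = 0.074) and without untreated replicate 1, untreated replicate 2 or pyruvate replicate 3 (adjusted p = 0.084, 0.060 and 0.063), and the mean over the 4 probe sets that passed the filter changed by 0.06 (adjusted p = 0.58).

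Sod2, the manganese dismutase of the mitochondrial matrix, gave a call on 1 of 4 probe sets. The brightest (1448610_a_at) read 947.1, 898.6 and 923.3 untreated and 826.5, 786.8 and 821.2 with pyruvate. All pyruvate arrays were below all untreated arrays, a log2 change of -0.18 ± 0.05 (SE; limma adjusted p = 0.014). A second bright probe set (1417193_at) read 838.8, 848.2 and 828.0 and then 855.1, 833.8 and 872.1. Its groups overlapped, and the 95% interval of its log2 change of 0.03 ran from -0.08 to 0.13 (adjusted p = 0.72), so it did not show the fall of the brightest. The log2 ratio of the second to the brightest probe set within an array was 0.21 higher with pyruvate (exact two-sided permutation p = 0.1, the smallest that 3 against 3 arrays allow). The remaining probe sets, 1454976_at and 1417194_at, had log2 changes of -0.01 and 0.31 and did not pass (adjusted p = 0.95 and 0.36). The 1417194_at signals spread from 16.6 to 54.5 within the untreated group. The call was lost with median centring (-0.15, adjusted p = 0.082), without the variance trend (adjusted p = 0.061) and without untreated replicate 1 (adjusted p = 0.071). Averaged over the 4 probe sets the change was 0.03 (adjusted p = 0.76), so a direction for Sod2 rests on which probe set is read.

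**Figure D2:**
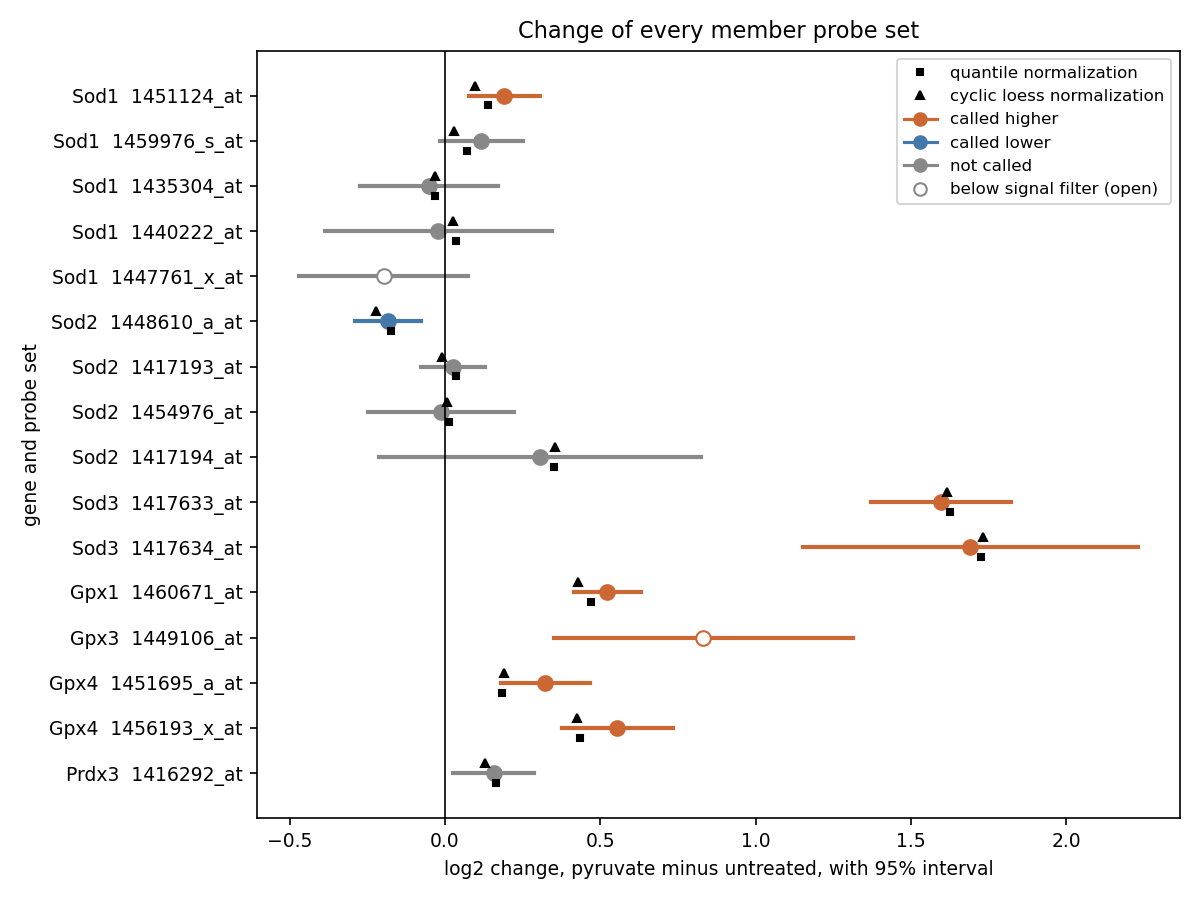
Log2 change (pyruvate minus untreated) of all 16 member probe sets, with 95% intervals from the limma fit (3 arrays per group); orange is called higher, blue called lower, grey not called, open circles are the probe sets below the signal filter (from the fit without it), and small squares and triangles give quantile and cyclic loess normalization. Both Sod3 probe sets stand near 1.6 to 1.7, the Sod1 and Sod2 probe sets scatter around 0, and Gpx1 and Gpx4 lie above 0 under each normalization.

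The dismutases were also compared with each other within arrays. There, the log2 ratio of Sod3 to Sod1 was 1.41 higher with pyruvate and that of Sod3 to Sod2 1.78 higher, on brightest probe sets. The ratio of Sod2 to Sod1 was 0.37 lower on the brightest probe sets, but the second bright ones changed by 0.03 for Sod2 and 0.12 for Sod1, neither called, so this difference depends on the probe sets read. Each of these ratios separated the pyruvate from the untreated arrays (exact two-sided permutation p = 0.1). These were 3 of 8 such ratios computed, chosen with the changes known, and all 8 had an exact permutation p of 0.1, also after Benjamini-Hochberg adjustment.

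Gpx1, the selenium enzyme that reduces hydrogen peroxide in the cytosol and mitochondria, rose by 44.1% in mean signal. Its probe set (1460671_at) read 1329.0, 1422.1 and 1417.8 untreated and 1938.3, 2016.1 and 2053.8 with pyruvate. The groups were far apart compared with the spread within them. The means were 1390 ± 52.6 and 2003 ± 58.9 (SD, n = 3 each), a log2 change of 0.52 ± 0.05 (SE; limma adjusted p = 1.9e-05), and each alternative kept the call, with changes of 0.43 to 0.56.

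Gpx4, the selenium enzyme that reduces lipid hydroperoxides within membranes and guards against ferroptosis, rose on both probe sets. The brightest (1451695_a_at) read 2445.9, 2396.2 and 2600.1 untreated and 2831.3, 3376.4 and 3133.6 with pyruvate, and the other (1456193_x_at) 1931.7, 2224.4 and 2372.7 and then 3024.2, 3552.5 and 3030.8. Neither showed overlap between groups. The log2 changes were 0.32 ± 0.06 and 0.56 ± 0.08 (SE; limma adjusted p = 0.0030 and 0.00038). RefSeq also lists the pseudogenes Gpx4-ps1 and Gpx4-ps2, and whether their transcripts add to these signals was not tested. Both stayed called under each alternative, but the brightest moved to 0.18 with quantile and 0.19 with cyclic loess normalization (adjusted p = 0.018 for both).

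Gpx3, the secreted glutathione peroxidase of plasma, was dim. Its probe set (1449106_at) read 6.7, 20.2 and 10.0 untreated and 27.8, 36.7 and 36.2 with pyruvate. The groups did not overlap, although the pyruvate mean of 33.6 was only just over the filter signal and the mean of all arrays was under it. In the fit without the filter, where 6.59% of 45037 probe sets were called higher and 6.26% lower, its log2 change was 0.83 ± 0.21 (SE; limma adjusted p = 0.035). That was the only fit with this probe set, and its untreated signals were all below the filter.

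Prdx3, the peroxiredoxin of the mitochondrial matrix, read 724.3, 687.2 and 738.5 untreated and 740.9, 838.8 and 825.2 with pyruvate (1416292_at). The groups did not overlap, but pyruvate replicate 1 lay within a few units of the highest untreated array. Its log2 change was 0.16 (95% interval 0.03 to 0.29) and did not pass (limma adjusted p = 0.063). It passed without pyruvate replicate 1 (0.21, adjusted p = 0.013), and with median centring, array weights or the stricter filter (adjusted p = 0.044, 0.041 and 0.044). In all, 7 of the 14 probe sets above the filter had every pyruvate array over every untreated array and 1 the reverse, where 22.9% and 22.5% of all tested did so. Among the 7 is the dimmer Sod3 probe set (1417634_at), which passed the filter only through its pyruvate arrays.

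Brightness moved with the direction of change across the arrays, and several members are bright. Among all probe sets with mean log2 values of 9 to 10, the range of Prdx3 and the bright Sod2 probe sets, the median change was 0.00. It was 0.03 from 10 to 11, the range of Gpx1 and bright Sod1, and 0.15 from 11 to 12, the range of Gpx4, where 50.3% of 616 probe sets were called higher. Gpx1 at 0.52, Gpx4 at 0.32 and 0.56 and Sod1 at 0.19 all lay above the median of their range. Sod3 lay in ranges (6 to 8) with medians of -0.04 and 0.01.

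**Figure D3:**
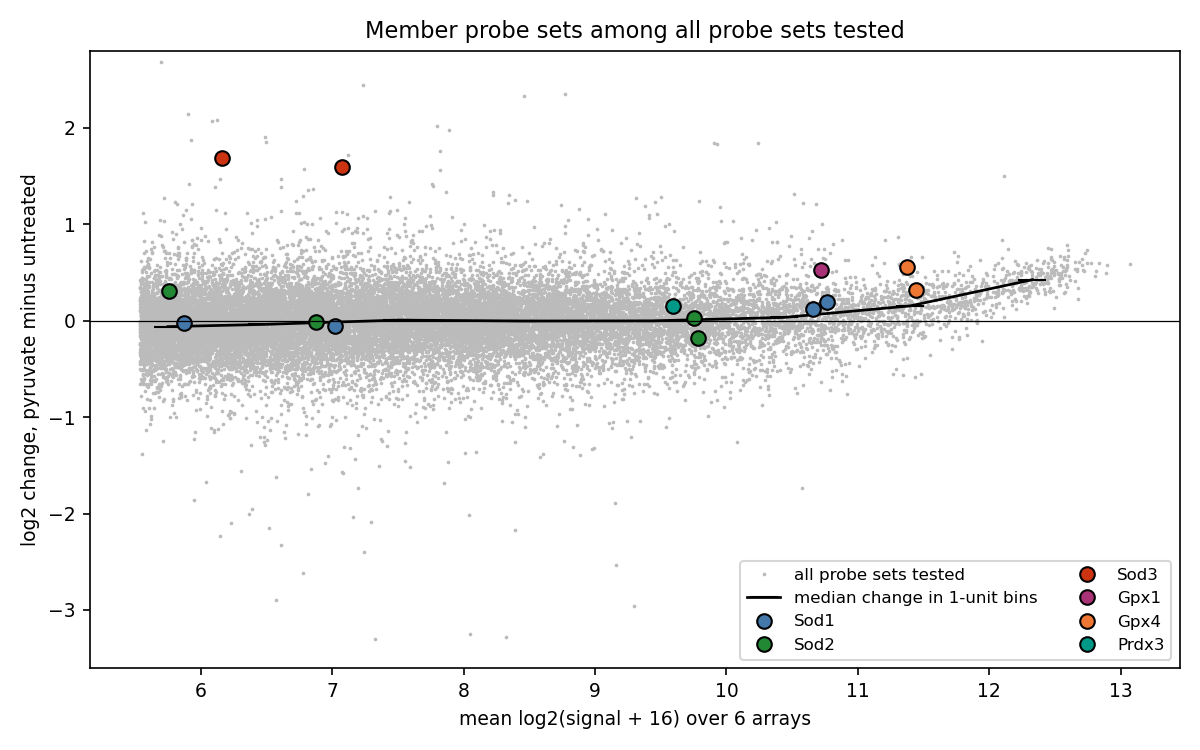
Log2 change (pyruvate minus untreated) against mean log2(signal + 16) over the 6 arrays for all 22519 probe sets tested (grey), with the median change in 1-unit bins (black line) and the 14 member probe sets that passed the filter in colour by gene. The line lies near 0 up to a mean of 10 and reaches 0.43 in the brightest bin; the Sod3 points stand far above it, and the dim Sod2 probe set 1417194_at lies at 0.31 where the bin median is -0.06.

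The promoters of 4 members are given to set the glutathione peroxidases that rose, Gpx1 and Gpx4, beside the dismutases Sod1 and Sod2, whose calls depended on the probe set. They are RefSeq windows of build GRCm38.p6, 250 bases before to 50 after a gene's start, all on the plus strand: Gpx1 at chr9:108338830-108339129, Gpx4 at chr10:80053315-80053614 (1 of 4 windows listed), Sod1 at chr16:90220512-90220811 and Sod2 at chr17:13007589-13007888. Capitals mark 2 motifs searched on both strands: the core of the antioxidant response element, TGACNNNGC, to which NRF2 can bind, and the GC box, GGGCGG, to which SP1 can bind.
Gpx1: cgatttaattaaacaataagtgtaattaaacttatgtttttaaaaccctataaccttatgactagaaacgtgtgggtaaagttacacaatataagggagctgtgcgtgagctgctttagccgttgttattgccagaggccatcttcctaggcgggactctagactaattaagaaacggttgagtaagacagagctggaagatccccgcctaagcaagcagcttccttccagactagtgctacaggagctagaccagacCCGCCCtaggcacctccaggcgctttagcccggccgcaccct
Gpx4: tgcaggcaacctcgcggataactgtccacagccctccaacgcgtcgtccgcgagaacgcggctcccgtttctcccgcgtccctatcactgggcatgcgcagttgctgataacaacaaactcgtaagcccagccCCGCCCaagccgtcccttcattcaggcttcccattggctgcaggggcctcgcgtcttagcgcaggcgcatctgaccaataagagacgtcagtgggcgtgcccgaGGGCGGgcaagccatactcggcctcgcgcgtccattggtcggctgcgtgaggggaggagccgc
Sod1: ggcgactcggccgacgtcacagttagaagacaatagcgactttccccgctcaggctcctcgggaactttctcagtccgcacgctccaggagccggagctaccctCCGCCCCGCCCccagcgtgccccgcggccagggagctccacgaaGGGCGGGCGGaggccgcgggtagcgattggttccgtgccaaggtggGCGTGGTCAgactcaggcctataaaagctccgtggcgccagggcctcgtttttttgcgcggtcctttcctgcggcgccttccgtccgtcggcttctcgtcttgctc
Sod2: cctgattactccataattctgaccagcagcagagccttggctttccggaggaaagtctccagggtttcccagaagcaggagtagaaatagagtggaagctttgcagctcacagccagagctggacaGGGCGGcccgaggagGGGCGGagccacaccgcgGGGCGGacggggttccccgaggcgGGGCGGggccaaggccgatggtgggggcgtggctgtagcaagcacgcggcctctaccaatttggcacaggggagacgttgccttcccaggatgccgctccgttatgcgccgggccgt
The Sod1 window held 1 response element core, on the minus strand from 56 bases before the start, and 4 GC boxes in overlapping pairs. Sod2 held 4 GC boxes, Gpx4 2 and Gpx1 1, with no response element core in these windows. Of the 8 members with a window, 2 (Sod1 and Prdx1) held the core and 8 at least 1 GC box, where 14.0% and 38.2% of all 27025 genes with a window did. By window, 12.4% and 35.7% of all 32851 held the core and the GC box. The table used had no window for Sod3 or Prdx6.

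The wider system around the members was read from gene lists by the brightest probe set of each gene, against 20.7% of all genes called higher and 14.5% lower. The partners that load, repair or assist the enzymes rose together: 7 of 7 tested were higher, with a median log2 change of 0.43. Ccs, the chaperone that hands copper to Sod1, read 280.2, 271.8 and 292.6 untreated and 414.4, 351.6 and 408.8 with pyruvate, with no overlap. It rose by 0.45 (limma adjusted p = 0.00069). Srxn1, sulfiredoxin, which reactivates overoxidised peroxiredoxins, read 441.8, 413.7 and 419.3 and then 675.9, 668.6 and 664.8. It rose by 0.64 (limma adjusted p = 6.7e-06), with 2 of its other 3 probe sets called higher. Atox1, a copper chaperone of the secretory route by which Sod3 receives its copper, rose by 0.43. It was named after its value was seen, and so were Sesn1 and Park7, each of which rose on the brightest probe set but not on the others: a second Sesn1 probe set was called lower (-0.48) and a second Park7 probe set did not pass (-0.09). Sesn3, a sestrin, rose by 0.52.

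Other peroxide-removing enzymes were mixed. Of 11 listed, 5 passed the filter, 2 were higher and none lower, with a median of 0.00; Gpx2, Gpx5, Gpx6, Gpx7, Prxl2a and Prxl2b were below the filter. Gpx8, an endoplasmic reticulum membrane peroxidase, read 978.1, 958.6 and 1084.9 untreated and 1456.9, 1665.5 and 1555.9 with pyruvate, without overlap. It rose by 0.62 (limma adjusted p = 3.3e-05). The cytosolic peroxiredoxin Prdx2 rose by 0.25 as scaled by the authors (adjusted p = 0.0029), but not past the threshold with quantile (0.10, adjusted p = 0.15) or cyclic loess normalization (0.11, adjusted p = 0.097). Catalase, Cat, which breaks down hydrogen peroxide in peroxisomes, was at 664 ± 42.0 and 665 ± 78.7 (SD, n = 3 each), so its log2 change was 0.00 (95% interval -0.18 to 0.17). Its second probe set was called higher (0.24, adjusted p = 0.038).

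Prdx4, the peroxiredoxin of the endoplasmic reticulum, had 4 probe sets, of which the brightest and another are given here. These differed. The brightest (1416167_at) read 1704.4, 1784.0 and 1768.1 untreated and 1574.7, 1598.0 and 1751.8 with pyruvate, which overlap (-0.09, adjusted p = 0.20). With quantile or cyclic loess normalization it was called lower (-0.14 and -0.19, adjusted p = 0.039 and 0.012). Probe set 1416166_a_at, singled out after its values were seen, read 686.2, 761.2 and 925.9 untreated and 311.3, 307.2 and 288.2 with pyruvate. Its groups were far apart, a log2 change of -1.33 (limma adjusted p = 2.1e-06). The files do not say which transcript form each probe set reads.

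Genes of the electron-donor systems were higher in part. In the thioredoxin and glutaredoxin system 6 of 11 were higher and 1 lower (median 0.19), but 4 higher and 2 lower with quantile and 4 higher and 1 lower with cyclic loess normalization. The 6 include Txnip, a thioredoxin-binding protein rather than a donor (0.23, adjusted p = 0.021), which kept its call with both normalizations. The lower one was Txnl1 (-0.19, adjusted p = 0.019). Both were named after their values were seen. Glrx, cytosolic glutaredoxin, rose by 0.51, its mitochondrial relative Glrx2 by 0.37 and mitochondrial thioredoxin Txn2, which serves Prdx3, by 0.25. Cytosolic thioredoxin Txn1 was called higher as scaled (0.23, adjusted p = 0.014), not called with cyclic loess (0.05) and called lower with quantile normalization (-0.18, adjusted p = 0.0012). Its reductase Txnrd1 passed at 0.14 (adjusted p = 0.040) but not with quantile or cyclic loess normalization (0.04 and 0.02) nor in 6 other alternatives, and the mitochondrial reductase Txnrd2 did not pass (0.19, adjusted p = 0.21). In glutathione synthesis and recycling 4 of 7 were higher and 0 lower (median 0.27), among them Gclm and Gclc, the subunits of glutamate-cysteine ligase, at 0.56 and 0.29, and Chac1, which degrades glutathione, at 0.29. Glutathione reductase, Gsr, which returns glutathione to its reduced form, was at 0.01 (95% interval -0.11 to 0.13).

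Selenoprotein synthesis, on which Gpx1 and Gpx4 depend, had 1 of 10 genes higher and 0 lower (median 0.06). Eefsec, the elongation factor for selenocysteine, read 115.9, 101.7 and 111.5 untreated and 177.8, 164.4 and 149.0 with pyruvate, and rose by 0.51 (limma adjusted p = 0.0015). Sephs2, which makes the selenium donor, and the selenium carrier Selenop were at 0.09 and -0.03 and did not pass. In NADPH supply 5 of 14 were higher and 1 lower (median 0.11), with 4 higher after quantile and 3 after cyclic loess normalization, where Idh1 (both) and Mthfd1 (cyclic loess) lost their calls. The list was led by malic enzyme Me1 at 0.61, with Pgd of the pentose phosphate pathway at 0.33 and the NAD kinase Nadk at 0.30. The one that fell, Idh2, the mitochondrial NADP-dependent isocitrate dehydrogenase, was named after its value was seen (-0.24). Of 21 genes for oxidant-producing oxidases only 4 passed the filter: Duoxa1, a maturation factor of dual oxidases, rose by 0.64 and Maoa, a mitochondrial monoamine oxidase, by 0.48. The dual oxidase Duox1 itself was dim at 50.8 and 45.1 and did not pass (-0.14, adjusted p = 0.56), and Duox2 had no single-symbol probe set. Nox4, an oxidase that makes hydrogen peroxide, was dim at 34.6 and 48.8 and did not pass (0.35, adjusted p = 0.063), but did with quantile normalization, cyclic loess or median centring (adjusted p = 0.038, 0.036 and 0.046).

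**Figure D4:**
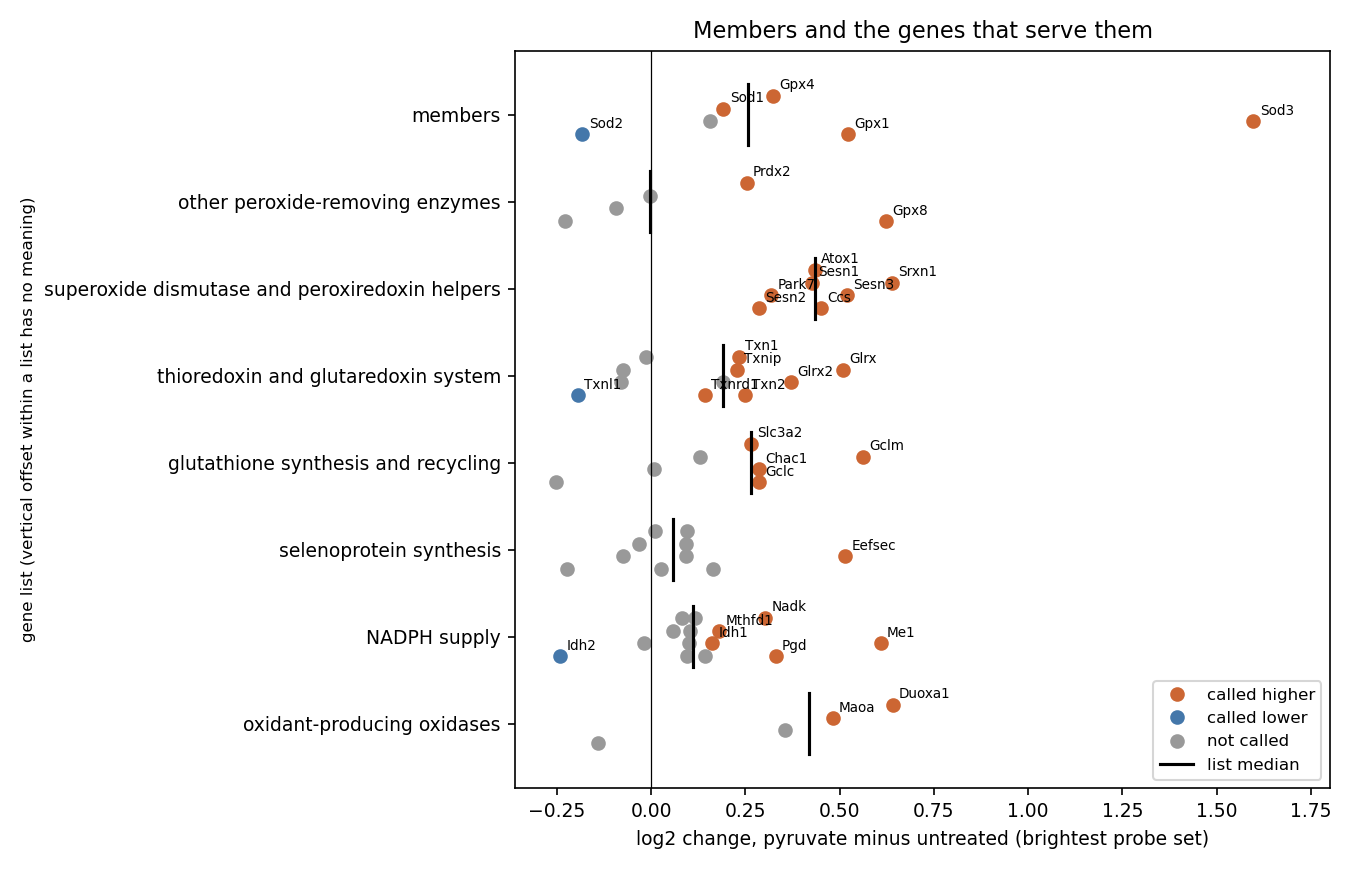
Log2 change (pyruvate minus untreated) of each gene above the signal filter on its brightest probe set, for the members and 7 lists of related genes; orange is called higher, blue called lower, grey not called, black bars are list medians, and called genes are named. All 7 helper genes lie above 0, while most genes of selenoprotein synthesis are grey and near 0.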

How the data were processed

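Total RNA of the 6 samples was extracted with TRIzol and transcribed into biotin-labelled cRNA, per the labels' protocols. The deposited values are MAS5 signals, an intensity per probe set and array on a linear scale, per the submitters' processing notes. Their trimmed mean was 150.0 on every array, so the authors had scaled the arrays to a common level. That scaling was kept, and it hides any change in total RNA per cell. The sources used here do not give the MAS5 version. Precision is limited by the number of arrays.

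Of 45101 probe sets, 64 controls were left out. Of the rest, 34945 had 1 gene symbol, 932 several and 9160 none, and 34741 of the first matched the RefSeq table by gene identifier. Signals were taken as log2(signal + 16), and probe sets with a mean at or above the median entered the test. The groups were tested with lmFit and eBayes with trend (limma 3.58.1, R 4.3.3; two-sided), adjusted over the 22519 probe sets. The step was tested on simulated data, where it recovered 1 of 48 log2 changes of 0.25 and 22 of 48 of 0.5. It recovered 41 of 46 changes of 1 and 37 of 37 of 2, and 2 of 103 calls were false. The simulation gave far fewer calls than the 7250 here, so its rates are not those of these data. The brightest probe set stood for a gene. In each related list up to 3 called genes with the largest absolute change were named, plus a set named whatever their values: Cat, Prdx2, Prdx4, Ccs, Srxn1, Txn1, Txn2, Txnrd1, Txnrd2, Gsr, Gclc, Gclm, Sephs2, Selenop and Nox4. The members and lists were chosen with earlier results of these data known. Marker lists for adipocytes and erythroid cells had 0 genes above the filter. Motif searches used RefSeq promoter windows. Figures were drawn with matplotlib 3.10.9.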

Additional observations from a re-analysis of the deposited data

How the results depend on the processing

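Results were recomputed with a pseudocount of 1 or 64, with the filter dropped or made stricter, with quantile, median-centring and cyclic loess normalization, limma without trend and with robust variances, array weights, a replicate block, and each array left out. The same settings for the named genes of the other lists were added after the data were seen. Over all probe sets 7250 were called, and 5377 to 7500 under the alternatives. Of the members 7 probe sets were called, and 5 to 9 under the alternatives. Of 232 values for member probe sets under an alternative, 219 kept their side of the threshold, 8 lost a call and 5 gained one. No called member probe set changed sign. Averaging all Sod2 probe sets above the filter turned its change from -0.18 to 0.034 (adjusted p = 0.76). The 4 changes averaged were -0.18, 0.03, -0.01 and 0.31, the last from the dim 1417194_at, whose change was 0.016 without untreated replicate 3. Txn1 turned from 0.23 to -0.18 with quantile normalization, and the cause was not tested. With the replicate number as a block 6917 probe sets were called, 7 of them members, and no member's call changed. Same-numbered arrays deviated from their group means with correlations of -0.01 to 0.02, so the numbers are not taken to pair the samples. Leaving out 1 array gave 5377 to 7048 calls in all and 5 to 9 for members. Signals near the filter, as for Gpx3 and Nox4, limit what can be seen.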
